A study of Homo sapiens with 12 samples.

Results

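Expression of 10 genes that govern the passage of cells from G1 into S phase was followed in T47D cells given anastrozole, 17β-estradiol (E2) or the combination. The genes were taken by symbol from the 25370 genes of the count table: the D-type cyclins CCND1 and CCND3, the E-type cyclins CCNE1 and CCNE2, the kinases CDK2, CDK4 and CDK6, the repressor RB1, the transcription factor E2F1 and the kinase inhibitor CDKN1B. All 10 had at least 100 counts in every library and all entered the tests. T47D is a luminal, estrogen receptor-positive breast cancer line grown from a pleural effusion, and anastrozole is an inhibitor of aromatase, the enzyme that makes estrogens from androgens. RNA-seq had been done on 12 libraries, 3 each (lettered a to c) of cells given vehicle, 10 nM anastrozole, 0.1 nM E2, or both agents at these doses. The series compares the transcripts that respond to the aromatase inhibitor with those that respond to the hormone. All 4 groups were unmodified T47D cells that had been kept for 48 hours in medium with 5% charcoal-stripped serum, which is depleted of steroids, and then for 24 hours without serum. The labels give 12 hours of treatment and the study's methods give 24. The labels do not say whether the libraries of a group came from separate cultures, and the methods name independent experiments for gene expression in general, not for the sequencing, so p-values measure the spread between these libraries, which may be technical. A single cell line was used. Apart from the time in stripped and then serum-free medium, the sources name no step to synchronize the cells. They give no cell-cycle phases for these libraries, so a change in the share of cells in a phase and a change of RNA per cell cannot be told apart.

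In G1, mitogens raise D-type cyclins, which bind CDK4 and CDK6 and start the phosphorylation of RB1. Unphosphorylated RB1 holds E2F transcription factors in check. When it is phosphorylated, E2F1 and its relatives switch on the E-type cyclins and the genes of DNA replication, and cyclin E with CDK2 completes the phosphorylation of RB1. CDKN1B (p27) binds cyclin E-CDK2 and blocks it. Estrogen is the main mitogen of luminal breast cancer cells, CCND1 is a textbook estrogen-responsive gene in them, and inhibitors of CDK4 and CDK6 are used together with aromatase inhibitors against these tumors. Much of this control acts on proteins, which RNA counts do not show.

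Promoter windows of RefSeq (GRCh38.p14, from 250 bases before to 50 bases after a listed transcription start) were found for 7 of the 10 genes, with 10 windows in all, and CCND1, CCNE2 and CDK2 had no entry. They were searched on both strands for 3 forms of the E2F element (TTTCCCGC, TTTGGCGC and TTTCGCGC, which do not overlap one another in these windows), for GGTCA, the half-site of the estrogen response element, and for the full palindromic estrogen response element with a spacer of 3 bases. The windows of E2F1, CCNE1 and CDK4 are shown because they differ in these elements, with capitals marking an E2F element in E2F1 and GGTCA half-sites in CDK4:
E2F1: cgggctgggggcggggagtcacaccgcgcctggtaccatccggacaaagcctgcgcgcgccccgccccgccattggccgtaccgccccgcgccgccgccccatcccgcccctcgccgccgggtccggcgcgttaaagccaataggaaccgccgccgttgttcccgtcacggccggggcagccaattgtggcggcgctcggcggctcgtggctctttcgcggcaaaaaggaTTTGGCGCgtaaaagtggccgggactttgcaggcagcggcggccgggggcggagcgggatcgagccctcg
CCNE1: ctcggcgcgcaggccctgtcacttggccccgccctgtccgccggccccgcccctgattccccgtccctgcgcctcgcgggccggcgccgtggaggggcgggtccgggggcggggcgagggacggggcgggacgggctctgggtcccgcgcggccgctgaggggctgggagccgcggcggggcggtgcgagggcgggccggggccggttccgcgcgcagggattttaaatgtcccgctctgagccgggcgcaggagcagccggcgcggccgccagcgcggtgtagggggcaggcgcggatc
CDK4: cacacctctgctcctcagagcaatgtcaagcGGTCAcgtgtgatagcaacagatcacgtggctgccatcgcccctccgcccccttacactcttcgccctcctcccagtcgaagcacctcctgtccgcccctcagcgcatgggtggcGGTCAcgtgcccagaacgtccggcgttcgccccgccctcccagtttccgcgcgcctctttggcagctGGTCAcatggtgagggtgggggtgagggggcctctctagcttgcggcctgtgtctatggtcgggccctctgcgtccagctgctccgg

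The E2F1 window (chr20:33686336-33686635, minus strand) held TTTGGCGC at position -20 from the start, on the gene's own strand, an element found in 0.652% of 35116 windows of the same length. None of the other 9 windows held any of the 3 E2F letters, which 2.74% of all windows did. The RB1 window lay at a listed start inside the gene, 172699 bases from its 5′ end in this assembly, so the letters at the 5′ end of RB1 were not examined, and 2 of the 3 CCND3 windows likewise lay 108 and 111 kb inside. The CCNE1 window (chr19:29811741-29812040, plus strand) held 7 copies of the GC box GGGCGG or its reverse complement, which 45.0% of all windows held at least once, and the E2F1 window held 6. The CDK4 window (chr12:57752261-57752560, minus strand) held GGTCA at positions -219, -104 and -37, all on the gene's own strand, and 37.4% of all windows held at least 1 such half-site. GGTCA also lay at -159 in the RB1 window and at -128 in the CCND3 window 111 kb inside the gene, on the opposite strand in each. The full estrogen response element, found in 0.057% of all windows, was in none of the 10. These matches describe letters in a window and were not tested as sites.

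Reads counted on genes numbered 9914253 to 17009776 per library (median 13538621), at which 3 counts, taken here as the floor of detection, equal 0.177 to 0.303 CPM (read counts relative to library size, scaled here by edgeR's TMM factors). The floor covers counting error only. All 9 luminal epithelial markers examined, among them ESR1 (163 to 188 CPM) and PGR, were present in every library. With E2 5 of the 9 were called lower, beside 12.0% of all genes: ESR1 (-0.14), FOXA1 (-0.14), KRT8 (-0.10), KRT19 (-0.16) and CDH1 (-0.08). PGR was called lower with anastrozole than with vehicle (-0.13) or E2 (-0.19), and KRT19 higher with the combination than with E2 (0.11). Of 7 markers of other cell types, COL1A2, PTPRC, PECAM1 and KRT5 reached at most 0.233 CPM, within the range of the floor, KRT14 0.643 CPM and VIM 3.47 CPM. The exception was COL1A1, at 80.0 to 99.9 CPM. VIM was called higher with E2 (0.70) and with the combination (0.74) against vehicle, and COL1A1 was called higher with the combination than with E2 (0.17). Limma-voom called VIM in neither comparison, and the GC offset did not call it with E2. DESeq2 did not call VIM with the combination and gave it no adjusted p with E2. KRT8 and KRT19 with E2, and KRT19 with the combination against E2, were not called with the GC offset. CDH1 with E2 was not called by limma-voom. PGR with anastrozole against vehicle was not called by DESeq2 or limma-voom, while both called it against E2. COL1A1 was not called by limma-voom or with the GC offset. The part of these markers in the results was not tested. Libraries of a group differed by more than sampling noise in every pair (chi-square over its degrees of freedom 1.27 to 4.62). The fold changes between groups followed the GC content of the exons in 4 of the 6 pairs of groups, with Spearman's rho across 10845 genes of -0.55 when E2 was set against vehicle and 0.69 when the combination was set against E2, and this bears on several of the 10 genes.

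Levels per length, as CPM per kilobase of the canonical transcript, put CDK4 first and CDK6 last in vehicle-treated cells. CDK4 stood at 81.3 ± 2.14 (SD, n = 3 here and for each of the following), CDK2 at 51.0 ± 1.57, CCNE2 at 38.2 ± 0.39, CCND1 at 38.0 ± 0.65, CCND3 at 24.8 ± 1.25 and E2F1 at 22.9 ± 0.93. RB1 followed at 20.3 ± 1.25, CDKN1B at 18.2 ± 0.11, CCNE1 at 5.85 ± 0.24 and CDK6 at 0.944 ± 0.086. The libraries of CCNE2 and CCND1 overlapped, as did those of CCND3 and E2F1, so these neighbours did not differ beyond their spread, while the other neighbours did not overlap. CDK4, the partner of cyclin D in luminal cells, thus made up 98.9% ± 0.12 of the CDK4 and CDK6 level per length with vehicle, and 98.7% to 98.8% on average in the treated groups. CCND1 made up 60.5% ± 1.32 of the D-type cyclins with vehicle, 62.9% ± 2.01 with anastrozole, 61.4% ± 1.14 with E2 and 60.8% ± 1.21 with the combination, with overlapping libraries throughout. CCND2, the other D-type cyclin, reached at most 0.0789 CPM, which is under the floor. CCNE1 made up 13.3% ± 0.36 of the E-type cyclins with vehicle and 11.1% ± 0.28 with anastrozole, groups that did not overlap, and 11.5% ± 1.53 with E2 and 12.3% ± 1.69 with the combination, which overlapped with vehicle. With 3 libraries a group an exact 2-sided permutation test cannot go below p = 0.1, so no test was made on these shares.

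**Figure D1:**
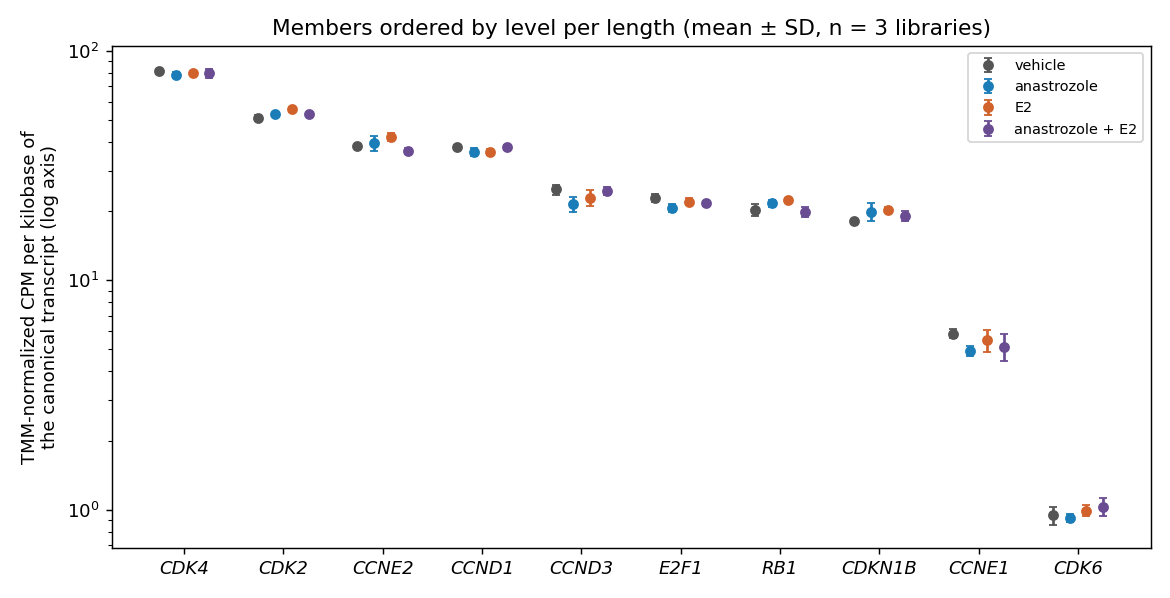
Level of each gene per length (y axis, log scale, TMM-normalized CPM per kilobase of the canonical transcript) in the 4 groups, as mean ± SD of 3 libraries, with genes ordered along the x axis by their vehicle level. The order runs from CDK4 (81.3 with vehicle) to CDK6 (0.944), and the 4 groups lie close together within each gene.

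Lengths decide part of that order. When the merged exons of all annotated transcripts were taken as the length, CCND3 stood at 8.73 and CDKN1B at 4.73 CPM per kilobase with vehicle, while CDK4 (49.0) and CDK6 (0.899) stayed first and last and CCND1 (33.9) came second. This length was added after the data were seen. The shares also depend on length: of counts not divided by length, with vehicle, CDK4 made up 93.2% of CDK4 and CDK6. On the same counts CCND1 made up 76.2% of the D-type cyclins and CCNE1 10.1% of the E-type cyclins. The genes also differ in how their exons overlap a neighbour on the other strand, which matters if the counting did not use strand; the sources used here do not state the setting. INTS8 covers 37.0% of the exon bases of CCNE2, TSPAN31 covers 44.2% of those of CDK4, LTO1 covers 10.4% of those of CCND1, and PMEL (2.29%) and a long noncoding RNA (14.5%) cover part of CDK2. CCNE1, RB1, E2F1 and CDKN1B had no such overlap.

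Across the 6 pairs of groups the fold changes of the 10 genes were small. The largest was CCNE1 with anastrozole, at -0.25 on the log2 scale (0.840-fold), and 5 of the 60 results of a gene in a pair passed an adjusted p of 0.05 in edgeR's quasi-likelihood test, beside 1.33% to 12.0% of all genes in a pair. These 5 results belonged to CCNE2, CDK2 and RB1. In that test all 3 were higher with E2 than with vehicle, and CCNE2 and RB1 were lower with the combination than with E2. With the GC trend of each library removed, only CDK2 with E2 was still called. For E2 against vehicle limma-voom called 0 of the 10, as did DESeq2, which gave 2 of them no adjusted p. For the combination against E2, DESeq2 called both CCNE2 and RB1 and limma-voom called CCNE2 alone. The genes are taken below by role, with the level in every library in the order a, b and c. Each of the 10 panels in the plot of levels by library starts at 0.

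**Figure D2:**
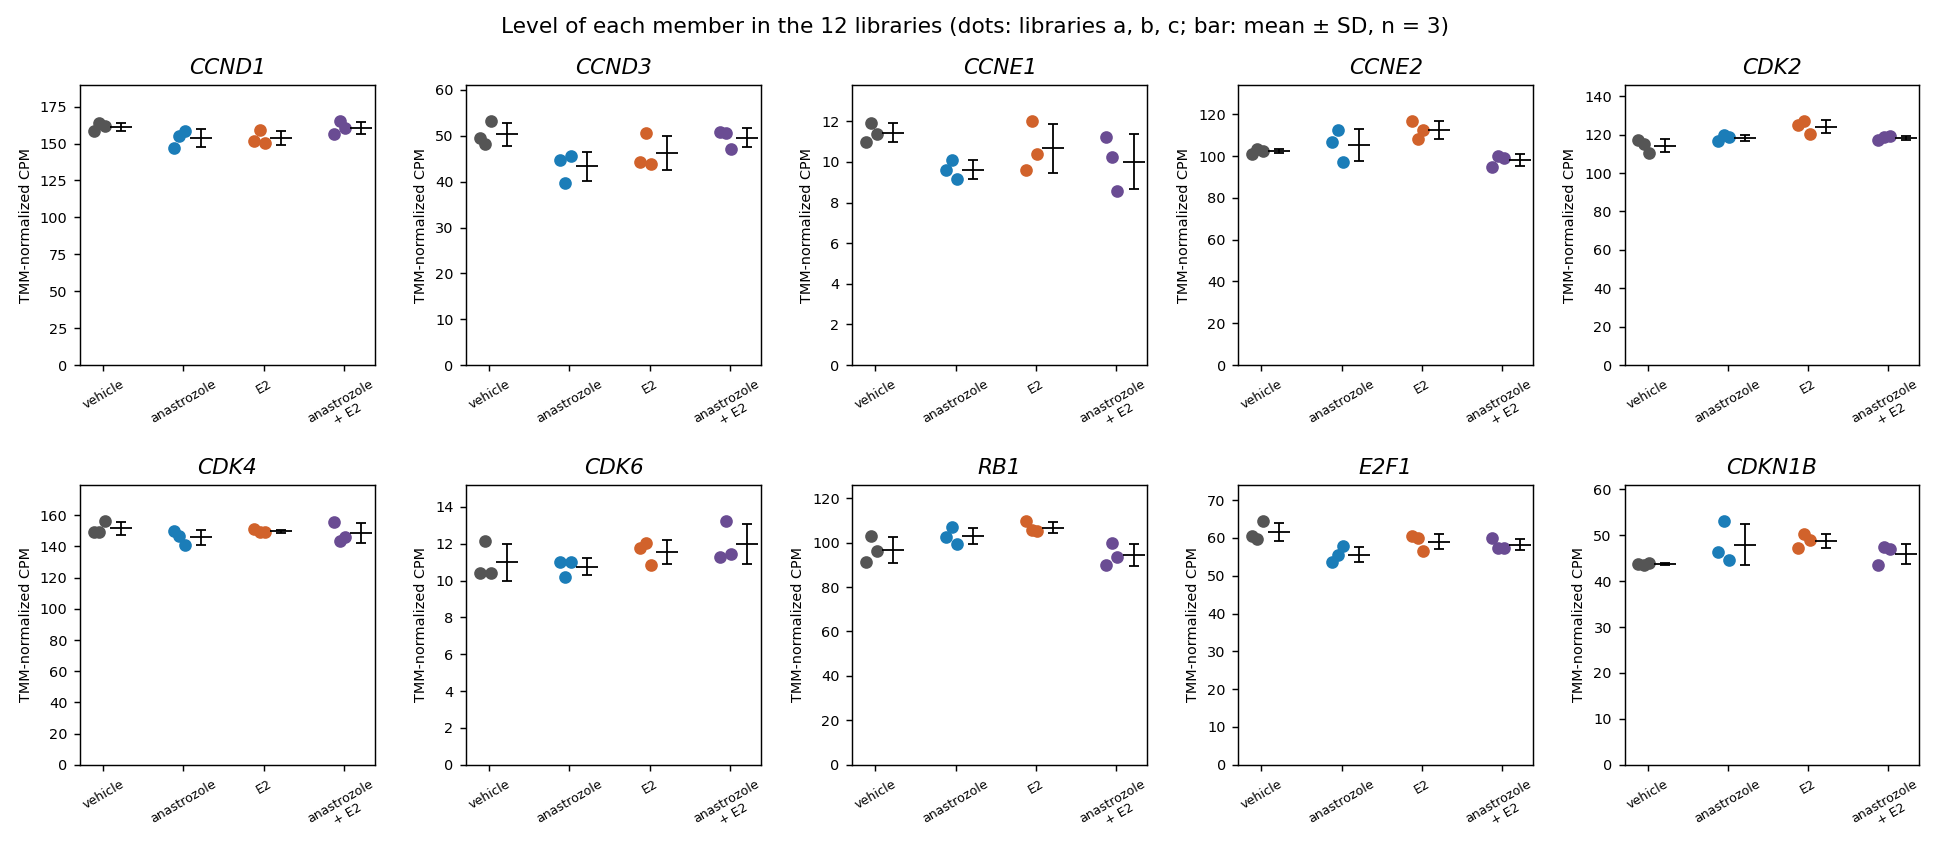
TMM-normalized CPM (y axis, from 0) of the 10 genes in each of the 12 libraries, grouped along the x axis by treatment. Dots are libraries a, b and c and bars are mean ± SD (n = 3); the E2 libraries of CCNE2 (108 to 117 CPM) lie above those of vehicle (101 to 103 CPM), and the groups of CCND1 (147 to 165 CPM over all libraries) overlap.

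CCND1 (GRCh37 chr11:69455924-69469242, plus strand) encodes cyclin D1, the main activator of CDK4 in luminal cells. Its level was 158, 164 and 162 CPM with vehicle and 147, 155 and 159 CPM with anastrozole. It was 152, 159 and 150.4 CPM with E2 and 157, 165 and 161 CPM with anastrozole plus E2. The groups overlapped in each of the 6 pairs. Its log2 fold change was -0.07 ± 0.04 (SE) for E2 against vehicle, with an adjusted p of 0.30 and a 95% interval of -0.14 to 0.0087. Against vehicle it was -0.07 ± 0.05 with anastrozole (interval -0.16 to 0.03) and -0.0050 ± 0.04 with the combination (interval -0.08 to 0.07).

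CCND3 (chr6:41902672-42018095, minus strand) encodes cyclin D3, which serves CDK4 and CDK6 in the same way. It was measured at 49.6, 48.2 and 53.1 CPM with vehicle, 44.6, 39.8 and 45.6 CPM with anastrozole, 44.4, 50.5 and 43.8 CPM after E2, and 50.9, 50.7 and 47.2 CPM with the combination. Each anastrozole library lay below each library of vehicle and of the combination, while the E2 libraries overlapped with the other groups. The log2 fold change was -0.21 ± 0.07 for anastrozole against vehicle, with an adjusted p of 0.052 that just missed the threshold, and 0.19 ± 0.07 for the combination against anastrozole (adjusted p = 0.11). Once the trend on GC content had been removed from each library, these were -0.12 ± 0.06 (adjusted p = 0.34) and 0.11 ± 0.06 (adjusted p = 0.52). CCND3 did pass for anastrozole against vehicle with all 12 libraries in the fit and with the replicate letter as a block. Those fits called 5.82% and 3.89% of all genes. CCND3 is rich in GC, with 58.2% in its exons against a median of 47.6% for genes above 3 log2 CPM.

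CDK4 (chr12:58141510-58149796, minus strand) and CDK6 (chr7:92234235-92465887, minus strand) encode the kinases of the D-type cyclins. CDK4 was measured at 149, 149 and 156 CPM with vehicle, 150.2, 146 and 141 CPM with anastrozole, 151, 149 and 149 CPM after E2, and 156, 144 and 146 CPM with the combination. No pair of groups was without overlap for CDK4, and its log2 fold changes in the 6 pairs lay between -0.05 and 0.03, none past the threshold. CDK6 was measured at 10.4, 12.2 and 10.4 CPM with vehicle, 11.0, 10.2 and 11.0 CPM with anastrozole, 11.7, 12.1 and 10.8 CPM after E2, and 11.3, 13.2 and 11.4 CPM with the combination. Its libraries with the combination lay above those with anastrozole, at a log2 fold change of 0.15 ± 0.12 (adjusted p = 0.65), and the other groups overlapped. CDK6 rested on 101 to 204 counts a library and CDK4 on 1449 to 2525, and the 95% interval of CDK6 for E2 against vehicle (-0.16 to 0.29) was wider than that of CDK4 (-0.09 to 0.06).

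CCNE1 (chr19:30302898-30315219, plus strand) and CCNE2 (chr8:95891998-95908906, minus strand) encode cyclins E1 and E2, the partners of CDK2 at the start of S phase. CCNE1 was measured at 11.0, 11.9 and 11.4 CPM with vehicle, 9.59, 10.1 and 9.16 CPM with anastrozole, 9.62, 12.0 and 10.4 CPM after E2, and 11.2, 10.2 and 8.58 CPM with the combination. The anastrozole libraries lay below those of vehicle, at a log2 fold change of -0.25 ± 0.12 with an unadjusted p of 0.043 and an adjusted p of 0.31 in edgeR's test, and the remaining pairs overlapped. CCNE2 was measured at 101, 103 and 102 CPM with vehicle, 107, 112 and 97.0 CPM with anastrozole, 117, 108 and 113 CPM after E2, and 94.6, 100.1 and 99.2 CPM with the combination. Its E2 libraries lay above those of vehicle and of the combination, and its combination libraries lay below those of vehicle, while anastrozole overlapped with every other group.

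CCNE2 rose with E2 by 0.13 ± 0.04 on the log2 scale (1.10-fold, adjusted p = 0.020), a call that held in 2 of the 6 fits that left out 1 library. Against E2 it fell by 0.20 ± 0.04 on the log2 scale with the combination (0.872-fold, adjusted p = 7.1e-05), and this call held in each of the 6 such fits (-0.22 to -0.17). Against vehicle the combination gave -0.06 ± 0.04 (adjusted p = 0.57) and anastrozole gave 0.04 ± 0.05 (adjusted p = 0.77). The exons of CCNE2 hold 39.9% GC. Its log2 fold change with the GC trend removed was 0.06 ± 0.04 for E2 against vehicle (adjusted p = 0.50) and -0.12 ± 0.04 for the combination against E2 (adjusted p = 0.11). INTS8, the neighbour on the other strand and a subunit of the Integrator complex, rose with E2 by 0.18 ± 0.05 (adjusted p = 0.0017); its part in the CCNE2 counts was not tested.

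CDK2 (chr12:56360565-56366573, plus strand), the kinase of the E-type cyclins, was measured at 117, 115 and 110.5 CPM with vehicle and 117, 119.8 and 119 CPM with anastrozole. It was 125, 127 and 120.4 CPM with E2 and 117, 119 and 119 CPM with the combination. The E2 libraries of CDK2 lay above those of each other group. CDK2 rose with E2 against vehicle by 0.12 ± 0.04 on the log2 scale (1.09-fold, adjusted p = 0.036). The value was 0.13 ± 0.04 with the GC trend removed (adjusted p = 0.013), and CDK2, with 49.5% GC, was the one gene of the 10 that passed the threshold for E2 on that scale, beside 7.57% of all genes. Of the 6 fits of E2 against vehicle that left out 1 library, 3 called CDK2. Of 9 other settings 4 called it. DESeq2, limma-voom, library size alone, all 12 libraries in the fit and the replicate letter as a block did not. Against E2, the log2 fold change was -0.07 ± 0.04 with the combination (adjusted p = 0.32) and -0.06 ± 0.05 with anastrozole (adjusted p = 0.77).

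RB1 (chr13:48877880-49173572, plus strand), the retinoblastoma repressor, was measured at 91.1, 103 and 96.1 CPM with vehicle, 102, 107 and 99.6 CPM with anastrozole, 109.6, 105 and 105 CPM after E2, and 90.1, 99.6 and 93.6 CPM with the combination. Its E2 libraries lay above those of vehicle and of the combination, and the other pairs overlapped. RB1 rose with E2 by 0.14 ± 0.04 (1.10-fold, adjusted p = 0.016), also in 3 of the 6 fits without 1 library. Against E2 it fell by 0.18 ± 0.04 with the combination (0.885-fold, adjusted p = 6.4e-04), also in each of the 6 fits without 1 library (-0.21 to -0.14). At 36.9%, its exons have the lowest GC content of the 10 genes, and 4.50% of genes above 3 log2 CPM have less. On the scale without the GC trend the changes were 0.04 ± 0.04 (adjusted p = 0.67) and -0.08 ± 0.04 (adjusted p = 0.50).

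E2F1 (chr20:32263283-32274191, minus strand) is the activator that RB1 restrains, and its promoter window held the E2F element marked in capitals above. E2F1 was measured at 60.5, 59.8 and 64.4 CPM with vehicle and 53.7, 55.4 and 57.8 CPM with anastrozole. It was 60.4, 60.0 and 56.6 CPM with E2 and 60.0, 57.3 and 57.4 CPM with the combination. The anastrozole libraries lay below those of vehicle, and the other pairs overlapped. The log2 fold change for anastrozole was -0.15 ± 0.06, with an unadjusted p of 0.019 and an adjusted p of 0.19 in edgeR's test. E2F1 has the highest GC content of the 10 genes (61.6%), and with the GC trend removed this value was -0.03 ± 0.05 (adjusted p = 0.88). For E2 against vehicle the log2 fold change was -0.06 ± 0.05 as fitted and 0.06 ± 0.05 with the GC trend removed, past the threshold on neither scale.

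CDKN1B (chr12:12838432-12875303, plus strand), the inhibitor of CDK2, was measured at 43.8, 43.5 and 44.0 CPM with vehicle, 46.4, 53.1 and 44.5 CPM with anastrozole, 47.2, 50.3 and 49.0 CPM after E2, and 43.5, 47.4 and 47.0 CPM with the combination. Each library with anastrozole and each with E2 lay above those of vehicle, while the combination overlapped with all other groups. The log2 fold change was 0.16 ± 0.06 for E2, with an adjusted p of 0.051, and 0.13 ± 0.07 for anastrozole, with an adjusted p of 0.38. The anastrozole value was 0.05 without anastrozole library b, the highest of that group. On the scale without the GC trend the E2 and anastrozole values were 0.09 ± 0.06 (adjusted p = 0.41) and 0.07 ± 0.06 (adjusted p = 0.69), and the exons of CDKN1B hold 41.0% GC.

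Counted by comparison, 0 of the 10 genes passed the threshold with anastrozole against vehicle, beside 3.67% of all 21132 genes tested. At an unadjusted p under 0.05 there were 3, CCND3, CCNE1 and E2F1, each with a negative fold change. By p they ranked 800, 2988 and 2007 among the 21132 genes. Counts at an unadjusted p are given here and below without the share of all genes at that cut. Limma-voom called 0 of the 10, beside 0.071% of all genes, and DESeq2 called 0, beside 1.13%, but gave 2 of the 10 no adjusted p. The 3 libraries of each group did not overlap for 4 of the 10 genes (CCND3, CCNE1, E2F1 and CDKN1B), beside 17.7% of all genes. The median log2 fold change was -0.04 over the 10 genes and 0 over all genes. CCND3 alone passed the threshold when anastrozole library c was left out (-0.24, adjusted p = 0.012), beside 7.81% of all genes in that fit, and none of the 10 passed it in the other 5 fits of that kind.

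With E2 against vehicle, 3 of the 10 genes (CCNE2, CDK2 and RB1) were called, beside 12.0% of all genes, and all 3 were higher, beside 6.06% called higher among all genes. Among genes above 3 log2 CPM, as all 10 are, 21.5% were called. Groups did not overlap for 4 of the 10, beside 25.4% of all genes, and the median log2 fold change was 0.03 over the 10 genes and 0 over all. Of the 10 genes, 0 passed without vehicle library c or without E2 library a, and CDK2 alone passed without vehicle library a, in fits that called 8.24%, 9.21% and 8.90% of all genes. Over the 6 fits that left out 1 library the log2 fold changes ran from 0.11 to 0.16 for CCNE2, from 0.10 to 0.14 for CDK2 and from 0.10 to 0.19 for RB1. CCND3 was called lower without E2 library b (-0.19, adjusted p = 0.047), against -0.12 in all 6 libraries. DESeq2, which gave 2 of the 10 no adjusted p, called 0 and limma-voom called 0, beside 6.78% and 6.53% of all genes, with 4 genes each at an unadjusted p under 0.05.

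The combination against vehicle left 0 of the 10 genes past the threshold, beside 5.04% of all genes, and 0 at an unadjusted p under 0.05; DESeq2 and limma-voom also called 0. Groups did not overlap for 1 gene, CCNE2, beside 18.5% of all genes. The median log2 fold change was -0.02, and the largest in size was -0.19 ± 0.11 for CCNE1 (adjusted p = 0.45), which was -0.09 without combination library c and -0.28 without combination library a. In this comparison fold changes hardly followed GC content (rho -0.03). The 3 comparisons with vehicle share the same vehicle libraries, so their values are set side by side without a measure of likeness.

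**Figure D3:**
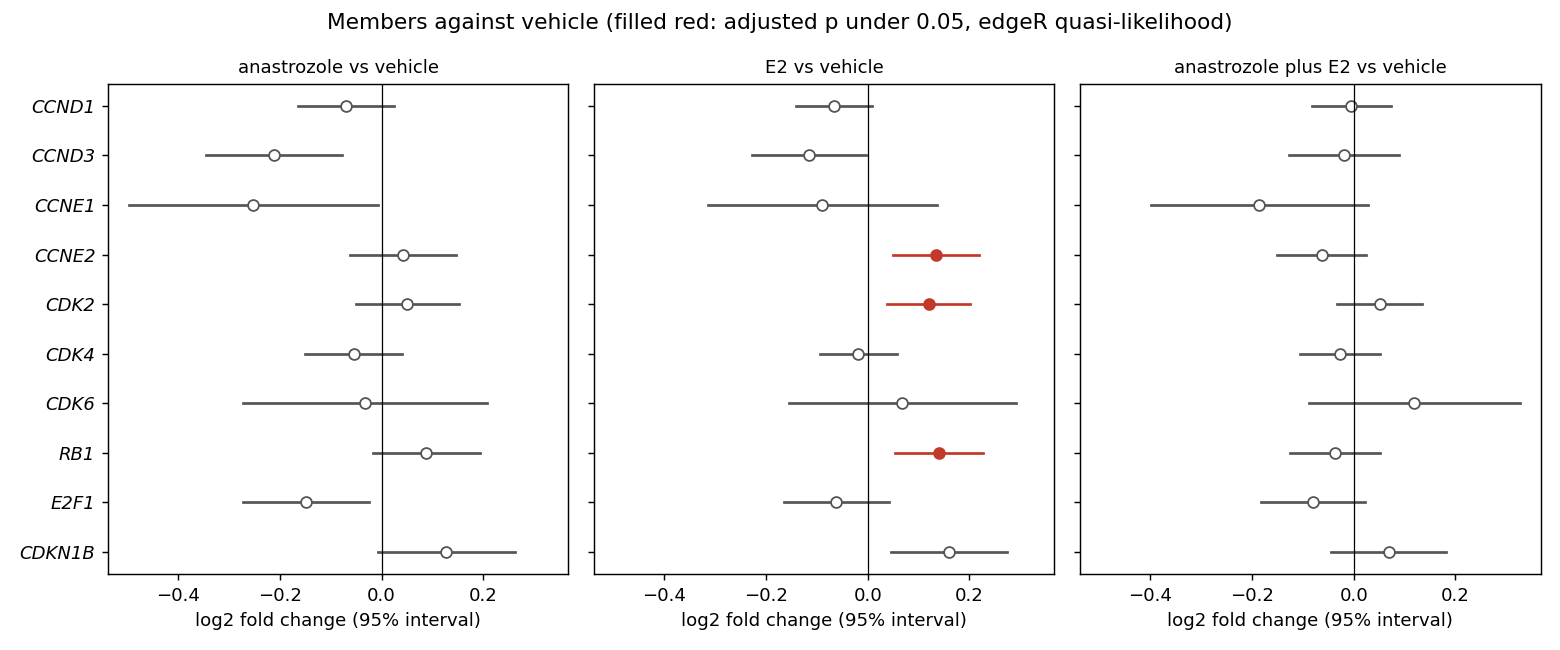
Log2 fold change (x axis) of each gene (y axis) against vehicle for anastrozole, E2 and the combination, with 95% intervals from the standard error. Filled red points passed an adjusted p of 0.05 in edgeR's quasi-likelihood test; these are CCNE2 (0.13), CDK2 (0.12) and RB1 (0.14) with E2, and none in the other panels.

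Compared directly, anastrozole and E2 differed for 0 of the 10 genes, beside 1.33% of all genes, with 0 at an unadjusted p under 0.05 and 0 called by DESeq2 or limma-voom. Groups did not overlap for CDK2 alone, beside 13.1% of all genes. The fold changes ran from -0.16 for CCNE1 to 0.0030 for CCND1, and 9 of the 10 were negative. A p that misses the threshold does not show equal levels: the 95% interval for CCNE1 ran from -0.40 to 0.09 and that for CCNE2 from -0.18 to 0.0040.

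Adding anastrozole to E2 gave calls for 2 of the 10 genes, CCNE2 and RB1, beside 6.74% of all genes, both lower, beside 3.51% called lower among all genes. Groups did not overlap for 3 of the 10 genes (CCNE2, CDK2 and RB1), beside 21.1% of all genes. Among genes above 3 log2 CPM, 12.5% were called. DESeq2 called both genes, limma-voom called CCNE2 (adjusted p = 0.035) and gave RB1 an adjusted p of 0.054, and with the GC trend removed 0 were called, beside 0.937% of all genes on that scale.

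Adding E2 to anastrozole gave 0 calls, beside 2.90% of all genes, with 3 genes at an unadjusted p under 0.05 (CCND3 at 0.19, CCNE2 at -0.11 and RB1 at -0.13 on the log2 scale). Limma-voom called 0 of the 10, beside 0.426% of all genes, and DESeq2 called 0, beside 1.12%, but gave 4 of the 10 no adjusted p. Groups did not overlap for CCND3 and CDK6, beside 16.9% of all genes. Without anastrozole library c the same 3 genes passed the threshold, CCND3 at 0.22, CCNE2 at -0.16 and RB1 at -0.15, beside 8.07% of all genes in that fit. Libraries a and c of the anastrozole group were the pair of replicates that differed most.

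The interaction asks whether the log2 difference made by E2 was the same with and without anastrozole, on all 12 libraries. It was called for 3 of the 10 genes, beside 10.9% of all genes and 19.9% of those above 3 log2 CPM. Of the cell-type markers, KRT8, KRT19 and COL1A1 had a positive interaction that was called. With the GC trend removed, PGR was the only marker called. The part of these markers in the interaction was not tested. CCND3 had an interaction of 0.31 ± 0.09 (adjusted p = 0.0084), with an E2 difference of -0.12 without and 0.19 with anastrozole. This call held in 9 of the 12 fits that left out 1 library and was lost with limma-voom. CCNE2 had one of -0.24 ± 0.07 (adjusted p = 0.0048), with E2 differences of 0.13 and -0.11. RB1 had one of -0.26 ± 0.07 (adjusted p = 0.0017), with E2 differences of 0.14 and -0.13. CDKN1B (-0.22 ± 0.09, adjusted p = 0.10) and CCND1 (0.13 ± 0.06, adjusted p = 0.15) had an unadjusted p under 0.05 only. The interaction followed GC content across genes with a rho of 0.71, and with the GC trend removed it was 0.14 for CCND3, -0.10 for CCNE2 and -0.09 for RB1, with 0 of the 10 called, beside 2.62% of all genes. Without anastrozole library b RB1 alone was called, beside 8.46% of all genes, and without anastrozole library c CCND1 and CDKN1B were called as well, beside 15.2%.

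**Figure D4:**
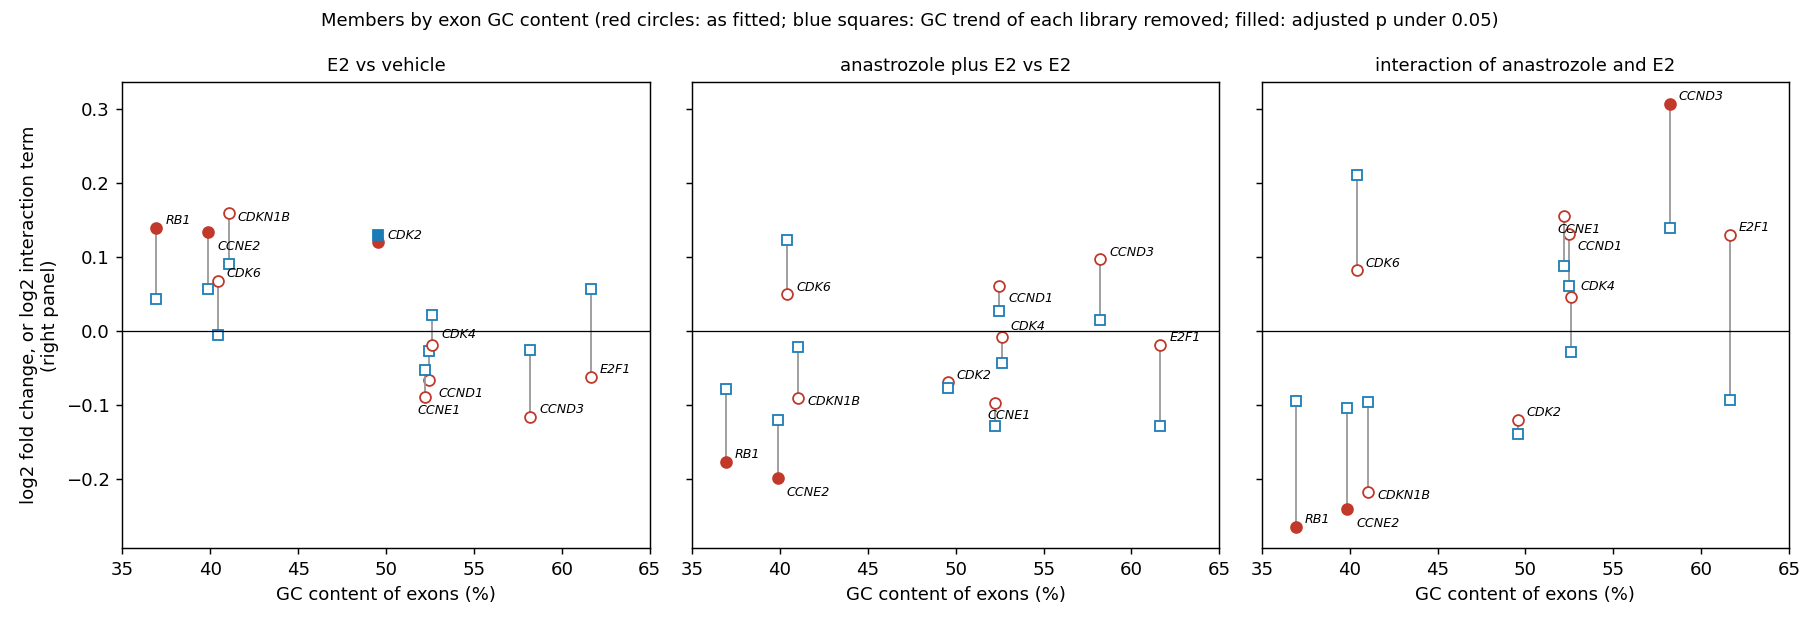
Log2 fold change, or log2 interaction term in the right panel (y axis), of each gene against the GC content of its exons in percent (x axis). Red circles are values as fitted and blue squares values with the GC trend of each library removed, filled where the adjusted p was under 0.05; RB1 and CCNE2 at the left move toward 0 in all 3 panels, while CDK2 with E2 stays at 0.12 to 0.13.

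The partners of these genes were read from a list of 25 other genes of the G1/S machinery (inhibitors of the kinases, relatives of RB1 and E2F1, the CDK-activating kinase, and factors that degrade CDKN1B or cyclin E). With anastrozole 0 of 25 passed the threshold, beside 3.67% of all genes, with 3 at an unadjusted p under 0.05. Limma-voom called 0 there and DESeq2 0 of the 13 with an adjusted p. The GC offset called CDKN2D (2.89% of all genes) and the fit to all 12 libraries called MNAT1 (5.82%). The fit without anastrozole library c called 3 (CDKN2D, CDK7 and MNAT1), beside 7.81% of all genes. With E2, 7 of 25 passed, 6 higher and 1 lower, beside the 12.0% of all genes and the 21.5% of genes above 3 log2 CPM. DESeq2's test called 0 of the 21 to which it gave an adjusted p with E2, and limma-voom called 2 of 25 (CDKN2D and MNAT1), beside 6.78% and 6.53% of all genes. CDKN2D (p19), an inhibitor of CDK4 and CDK6, stood at 10.4, 10.6 and 11.0 CPM with vehicle, 12.6, 15.9 and 12.2 CPM with anastrozole, 15.5, 13.3 and 15.5 CPM after E2, and 13.4, 15.2 and 13.6 CPM with the combination. All 9 treated libraries lay above the 3 of vehicle. CDKN2D rose by 0.45 ± 0.11 with E2 (adjusted p = 8.4e-04) and by 0.39 ± 0.10 with the combination (adjusted p = 0.0058). MNAT1 and CDK7, subunits of the kinase that activates CDKs, rose with E2 by 0.20 ± 0.06 and 0.17 ± 0.06 (adjusted p = 0.0070 and 0.021). The repressor E2F6 rose by 0.21 ± 0.07 (adjusted p = 0.035), and CDC25A, the phosphatase that activates CDK2, rose by 0.25 ± 0.09 (adjusted p = 0.039). Of these, CDKN2D was called in each of the 6 fits of E2 against vehicle that left out 1 library. Such fits called at least 2 of the 25 (without vehicle library c or E2 library c), beside 8.24% and 8.45% of all genes. They called at most 6, without vehicle library b, beside 13.3%.

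CDKN1A (p21), an inhibitor of CDK2, was measured at 117, 108 and 115 CPM with vehicle, 128, 122 and 118 CPM with E2 and 128, 127 and 127 CPM with the combination. It rose by 0.12 ± 0.04 with E2 (adjusted p = 0.039) and by 0.17 ± 0.04 with the combination (adjusted p = 0.0032). E2F4, a repressive relative of E2F1, was the gene of the list that fell with E2, by 0.16 ± 0.06 (adjusted p = 0.040). The E2 calls with the GC trend removed were CDKN1A, CDKN2D, RBL1 and CDC25A, 3 higher and 1 lower, beside 7.57% of all genes. CDKN1A and CDKN2D were the 2 of 25 called for the combination against vehicle, beside 5.04% of all genes and 8.37% of those above 3 log2 CPM, and they were also called on the GC scale there, which called 4 in all, 3 higher and 1 lower, with TFDP1 and MNAT1 as the others. The replicate block gave the same 4, and the block with the GC offset 6, RBL1 and CDK7 added. The share of all genes called was 6.02% with the GC offset, 6.81% with the block and 7.52% with both. DESeq2 called CDKN1A alone (2.19% of all genes) and limma-voom neither (1.64%). CDKN1A was called in each of the 6 such fits without 1 library, and CDKN2D in each but the one without combination library b. Against E2 the combination lowered 1 of 25, beside 6.74% of all genes. This was E2F6 (-0.23 ± 0.07, adjusted p = 0.020), called in 3 of the 6 fits without 1 library. It was not called by limma-voom, with all 12 libraries in the fit or with the GC trend removed. DESeq2 called 0 of the 12 partners to which it gave an adjusted p. In edgeR's test 0 passed in the comparison of anastrozole with E2, beside 1.33% of all genes, where CDC25A was lower with all 12 libraries in the fit or without the GC trend (1.63% and 2.34% of all genes). In that of the combination with anastrozole 0 passed, beside 2.90%, where CDKN1A was called without anastrozole library c (8.07%). At an unadjusted p under 0.05 there were 4 and 2 of the 25. Limma-voom also called 0 of 25 in both, as did DESeq2 among the 23 and the 7 partners to which it gave an adjusted p.

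Transcripts that E2F factors switch on were read from 18 genes of DNA replication and nucleotide synthesis. With anastrozole 5 of the 18 fell and 0 rose, beside 3.67% of all genes called and 6.51% of those above 3 log2 CPM, and the median over the 18 was -0.11 against 0 over all genes. MCM2, a subunit of the replicative helicase, stood at 137, 135 and 135 CPM with vehicle and 118, 119 and 113 CPM with anastrozole. It fell by 0.21 ± 0.05 (adjusted p = 0.0027). The others were CDT1, which loads the helicase (-0.21 ± 0.06, adjusted p = 0.031), the transcription factor MYBL2 (-0.19 ± 0.05, adjusted p = 0.0080), thymidine kinase TK1 (-0.17 ± 0.05, adjusted p = 0.012) and the helicase subunit MCM3 (-0.16 ± 0.05, adjusted p = 0.031). Without the GC trend 4 fell, of which MCM2 and MCM3 were among the 5 above, and MCM4 and PCNA were the others, beside 2.89% of all genes on that scale. DESeq2 called 3 of the 18 (1.13% of all genes), limma-voom 0 (0.071% of all genes) and the fit to all 12 libraries 6 (5.82% of all genes). MCM2 was called in each of the 6 fits that left out 1 library. These gave at least 1 call (without vehicle library c or anastrozole library b), beside 0.904% and 1.42% of all genes. They gave at most 6, without anastrozole library c, beside 7.81%.

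E2 gave 7 calls among the same 18 genes, 3 higher and 4 lower, beside the 12.0% of all genes and the 21.5% of those above 3 log2 CPM. It raised CCNA2, the S-phase cyclin (0.14 ± 0.04, adjusted p = 0.018), and the ribonucleotide reductase subunits RRM1 (0.16 ± 0.04, adjusted p = 2.2e-04) and RRM2 (0.11 ± 0.03, adjusted p = 0.023). It lowered MCM2 (-0.16 ± 0.04, adjusted p = 0.0017), MCM3 (-0.10 ± 0.04, adjusted p = 0.036), MCM5 (-0.20 ± 0.07, adjusted p = 0.031) and TK1 (-0.13 ± 0.04, adjusted p = 0.0031). The median over the 18 was -0.04. MCM2 and RRM1 were called in each of the 6 fits that left out 1 library. Such fits gave at least 3 calls (without vehicle library a or c, or E2 library b), beside 8.90%, 8.24% and 9.55% of all genes. The most was 7, without vehicle library b, beside 13.3%. DESeq2 called 3 (6.78% of all genes) and limma-voom 5 (6.53%). With the GC trend removed, RRM1 and RRM2 were called higher and MCM4 lower, beside 7.57% of all genes. The combination lowered 2 of 18 against vehicle, beside 5.04% of all genes and 8.37% of those above 3 log2 CPM. They were MCM2 (-0.13 ± 0.04, adjusted p = 0.034) and MCM4 (-0.12 ± 0.04, adjusted p = 0.024), both also with the GC trend removed. DESeq2 and limma-voom called MCM4 alone (2.19% and 1.64% of all genes). Of the 18, 0 were called without vehicle library c or without combination library b or c. The replicate block called 4 (MCM2, MCM3, MCM4 and PCNA), beside 6.81% of all genes, as did the block with the GC offset, beside 7.52%. Without combination library a 3 were called, beside 4.19%.

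RRM2 was the 1 of 18 called between anastrozole and E2, beside 1.33% of all genes and 2.37% of those above 3 log2 CPM. It was lower with anastrozole (-0.15 ± 0.04, adjusted p = 0.017) but not called in 4 of the 6 fits without 1 library, by DESeq2 or by limma-voom. The combination lowered 2 of 18 against E2, PCNA (-0.11 ± 0.03, adjusted p = 0.021) and RRM1 (-0.12 ± 0.03, adjusted p = 0.014), beside 6.74% of all genes and 12.5% of those above 3 log2 CPM. DESeq2 called RRM1 alone (3.06% of all genes). None of the 18 was called by limma-voom, with all 12 libraries in the fit or without combination library b. Against anastrozole the combination raised 2 of 18, beside 2.90% of all genes and 5.23% of those above 3 log2 CPM. They were CDT1 (0.21 ± 0.06, adjusted p = 0.021) and MYBL2 (0.20 ± 0.05, adjusted p = 0.0021), the latter also in each of the 6 fits without 1 library and by DESeq2, while limma-voom called 0. With the GC trend removed, the last 2 comparisons gave 0 calls. On that scale CCNA2, RRM2 and MYBL2 were lower with anastrozole than with E2, beside 2.34% of all genes.

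**Figure D5:**
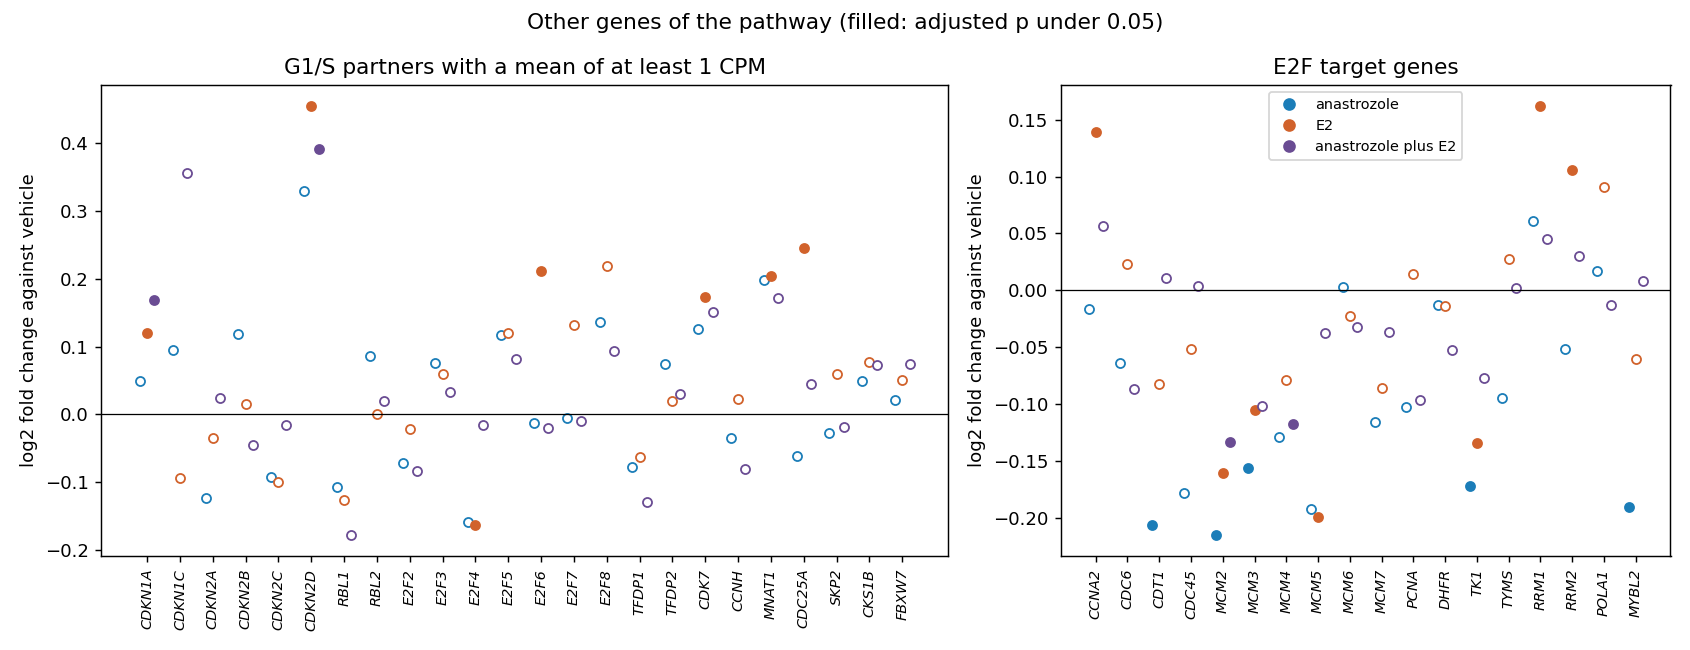
Log2 fold change against vehicle (y axis) of the other genes of the G1/S machinery (left, 24 genes with a mean of at least 1 CPM) and of E2F target genes (right, 18 genes) for each treatment. Filled points passed an adjusted p of 0.05; CDKN2D with E2 (0.45) and with the combination (0.39) stands highest on the left, and the filled anastrozole points on the right are all below 0.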

How the data were processed

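The authors aligned the reads of the 12 libraries to hg19 with TopHat2 2.0.14 and Bowtie2 2.2.6 (per the submitters' processing notes) and counted them per gene with HTSeq; the deposited values are whole-number counts without normalization. The strand setting and annotation are not given in the sources used here. Labels name polyA RNA and the methods total RNA. Reads on genes were 32.7% to 33.5% of the table, and its 5 summary rows were left out. The 4238 genes without counts were removed. Fits used the 6 libraries of a pair of groups, or all 12 for the interaction, with edgeR 4.0.16 (R 4.3.3; TMM, robust quasi-likelihood F test, 2-sided, Benjamini-Hochberg over 21132 genes, threshold 0.05). Standard errors are the absolute log2 fold change over the square root of F. DESeq2 1.42.0 and limma-voom 3.58.1 were alternatives. Each library's GC trend (lowess, span 0.5, genes above 3 log2 CPM) served as an offset in another, and a true change tied to GC would be lost with it. Positions, lengths and GC came from GENCODE 44 on GRCh37, where 21539 genes matched by symbol and 1476 by an older one. The members and lists were chosen with earlier results of these data known. From each list at most 6 called genes per comparison, those of smallest p, were to be named; E2F4, MCM3 and genes called only under an alternative were named after their values were seen. The tests were checked on simulated data.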

Additional observations from a re-analysis of the deposited data

Results flagged for a closer look

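The effect of E2 differed with and without anastrozole, by the interaction test in edgeR, for CCND3 (0.31, adjusted p = 0.0084), CCNE2 (-0.24, adjusted p = 0.0048) and RB1 (-0.26, adjusted p = 0.0017) among the 10 genes. Among the partners the same test singled out E2F4 (0.31, adjusted p = 0.0086). All genes had 10.9% called by this test, and those above 3 log2 CPM 19.9%. Among the E2F targets it singled out CDT1 (0.30), MCM2 (0.24), MCM3 (0.16), MCM5 (0.35), TK1 (0.23) and MYBL2 (0.26), each positive, and RRM1 (-0.18), with adjusted p-values of 6.0e-04 to 0.048. CCND3 was called in 9, MCM3 in 2 and RRM1 in 8 of the 12 fits that left out 1 library. Limma-voom did not call CCND3. MCM3 was not called with DESeq2's size factors, limma-voom or the replicate letter as a block. With the GC trend removed, none of these 11 genes was called, and CDKN2D of the partners was called lower; the part of GC content in them was not tested further.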

How the results depend on the processing

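Counts of the 10 genes past the threshold moved as follows, and the cause was not tested. For anastrozole against vehicle 0 became 1 (CCND3) with all 12 libraries in the fit and 1 with the replicate letter as a block, and leaving out 1 library gave 0 to 1. For E2 against vehicle 3 became 0 with DESeq2, 0 with limma-voom, 1 with the GC offset and 1 with the GC offset and replicate block, 4 with edgeR's own filter, and 2 with library size alone or all 12 libraries, and leaving out 1 library gave 0 to 3. For the combination against E2, 2 became 1 with limma-voom, 0 with the GC offset and 0 with the GC offset and replicate block. Leaving out 1 library gave 0 to 3 for the combination against anastrozole and 1 to 5 for the interaction, whose 3 became 2 with limma-voom, 0 with the GC offset and 0 with the GC offset and replicate block. The combination against vehicle and anastrozole against E2 had 0 in every setting run. Whether same letters mark paired libraries could not be settled. Correlations of deviations between same letters ran from -0.20 to 0.18 over 18 pairs, 3 of them over 0.1, and 1 between different letters reached 0.22. The block alone gave 2 for E2 against vehicle. For the combination against vehicle it gave 0, while the share of all genes called went from 5.04% to 6.81%. Of 1088 results of a gene under an alternative, 39 lost and 10 gained a call, 0 reversed a called direction, and 51 changed sign without a call. The share of all genes called moved too: for E2 from 12.0% to 6.78% with DESeq2, 6.53% with limma-voom, 7.57% with the GC offset and 17.9% with edgeR's filter, and for anastrozole from 3.67% to 5.82% with all 12 libraries. For the combination against E2 it went from 6.74% to 2.13% with limma-voom and 0.937% with the GC offset, and for the interaction from 10.9% to 2.62% with the GC offset. DESeq2 gave 2 of the 10 genes no adjusted p in 4 comparisons and 4 of them in the combination against anastrozole. Merged exons moved 33 of the levels per length, and undivided counts all 12 shares, by at least the SD of the libraries. CCNE1 and CDK6, with 100 to 204 counts a library, had the widest intervals.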
